A study of Danio rerio with 20 samples.

Results

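The genes described here are 63 cytokine, chemokine and leukocyte genes of the zebrafish, out of 32105 genes counted. They were chosen by name. A gene was included if its symbol, in the study's tables of expression changes or of changed chromatin accessibility, started with il and a digit, cxcl, cxcr, ccl, ccr, tnf, csf, irf, nfkb, socs or stat, or with one of 7 leukocyte gene names (mpeg1, mpx, lyz, ptprc, coro1a, lcp1 and marco). They comprise 9 cytokine ligands, 11 chemokines, 16 receptors, 7 feedback inhibitors, 13 transcription factors, 3 leukocyte markers (lyz, mpeg1.2 and mpeg1.3) and 4 genes that share only the start of their name. Of the 63, 46 stood in the table of genes changed between 0 and 4 dpa (days post amputation) in sorted cells, 40 of them only as decreased and 6 only as increased, and 17 stood only in the tables of accessible regions. The tables were held only in part, so that further genes with such names may exist. Gene-level changes over time in sorted cells are therefore given as a description. The rule used no expression value of unsorted fins, although results of those libraries were known when the genes were chosen. Choice by a decrease from 0 to 4 dpa in sorted cells can also favour decreases over these days in unsorted fins.

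RNA-seq was performed in 2 experiments with 20 libraries in 10 groups of 2. In the first, sp7+ and sp7- cells were sorted by FACS (fluorescence-activated cell sorting) from caudal fins of adult Tg(sp7:EGFP) fish at 0 dpa (uninjured) and 4 dpa. EGFP in this strain is driven by sp7 regulatory regions, sp7 being a transcription factor of bone-forming osteoblasts, and fins of many fish were pooled for each replicate. Uninjured fins were dissociated with TrypLE and then Liberase, and 4 dpa regenerates with a longer TrypLE step alone, so that time, tissue and enzyme cannot be told apart in sorted cells. In the second, fin tissue was taken without sorting from adult fosl1a WT and fosl1a KO fish at 0 dpa (uninjured fin), 1 dpa and 4 dpa (regenerating blastema). Fosl1a (Fra1) is an AP-1 transcription factor, and the mutant allele was made by CRISPR in an AB background. The number of fish per unsorted library is not given in the sources used here, and where replicates were not separate pools, p-values measure only the spread between libraries.

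Cytokines and chemokines are secreted proteins through which wounded and immune cells signal. Cytokines of the interleukin 6 and interferon types bind receptors that activate STAT factors, tumour necrosis factor (TNF) and interleukin 1 receptors activate NF-kB, and chemokines guide leukocytes through G-protein-coupled receptors. Both pathways induce their own inhibitors, the SOCS proteins, the IkB proteins (nfkbiaa, nfkbiab) and A20 (tnfaip3). In the regenerating fin, neutrophils and macrophages enter the stump soon after amputation, and macrophages are known to be needed for normal outgrowth.

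Library totals lay between 28906309 and 50312755 counts in sorted cells and between 10194983 and 31507208 in unsorted fins, and replicates correlated across genes with r between 0.950 and 0.992. The pair with the lowest r was the fosl1a mutant fin at 0 dpa, where socs3b stood at 39.7 and 134 CPM (reads of the gene as a share of the normalized library size) and irf2bp2b at 59.2 and 328 CPM. The targeted gene fosl1a stood at 2.71 and 3.96 CPM in wildtype and 11 and 9.20 CPM in mutant fins at 0 dpa, at 119 and 140 against 34.2 and 46.1 CPM at 1 dpa, and at 2.31 and 3.40 against 2.24 and 2.98 CPM at 4 dpa. Transcript level is no direct check of a CRISPR allele. All 63 members passed the filter on low counts in sorted cells and 61 in unsorted fins, where ccl35.2 and mpeg1.3 did not. All 7 measured pan-leukocyte genes were detected in every group. Read pairs were counted without strand and for every overlapping gene, and reads that matched several positions were dropped, so that levels of near-identical copies (the ccl19a, ccl19b and mpeg1 genes among them) are uncertain.

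The early response was read from wildtype fins at 1 dpa against 0 dpa. The ligand gene il11a and 3 TNF receptor genes were among those that rose, while 5 of 10 tested chemokines fell. Most of the 10 chemokines had been listed as decreased in sorted cells, so that this tally is a description. In whole tissue, fewer cells of a type and less RNA per cell cannot be told apart. A gene counted as risen or fallen if edgeR, testing for more than a 2-fold change, returned an adjusted p (Benjamini-Hochberg, over all tested genes) under 0.05. Of 61 members, 8 rose (13.1%, against 6.32% of all 20157 tested genes) and 7 fell (11.5%, against 8.95%). The median log2 fold change was -0.11 over the members and -0.06 over all genes.

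Among cytokine ligands, the largest change was in il11a, which encodes interleukin 11, a cytokine that signals through Il11ra and the shared subunit gp130. Its level was 0.297 and 0.0852 CPM at 0 dpa (at most 10 counts a library), 17.6 and 17.4 CPM at 1 dpa, and 6.93 and 5.70 CPM at 4 dpa. The libraries of 0 dpa lay far below all others. The log2 fold change at 1 dpa was 6.36 ± 0.35 (SE, edgeR adjusted p = 1.56e-06). The second called ligand was il15l, a fish relative of interleukin 15, with 5.38 and 4.01 CPM at 0 dpa, 17.9 and 13.2 CPM at 1 dpa, and 3.21 and 2.85 CPM at 4 dpa. It was high only in the 1 dpa libraries, with a log2 fold change of 1.72 ± 0.21 (edgeR adjusted p = 0.00597). Interleukin 15 itself (il15), a growth factor of T and NK cells, stood at 7.85 and 13.2, then 5.99 and 4.77, then 1.71 and 2.11 CPM at 0, 1 and 4 dpa, and its change at 1 dpa was not called.

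The other ligands did not pass the test at 1 dpa. Il34 and Csf1a are the ligands of the macrophage and osteoclast receptor Csf1r. il34 stood at 6.25 and 5.5 CPM at 0 dpa, 4.04 and 4.16 CPM at 1 dpa, and 4.77 and 6.05 CPM at 4 dpa. csf1a stood at 19.5 and 21.1 CPM at 0 dpa, 9.87 and 7.16 CPM at 1 dpa, and 8.48 and 9.87 CPM at 4 dpa. The 0 dpa libraries of csf1a did not overlap the later ones, and its log2 fold change of -1.25 ± 0.22 at 1 dpa missed the 2-fold test (edgeR adjusted p = 0.201). The osteoclast factor RANKL (tnfsf11) stood at 3.03 and 2.86, then 2.41 and 2.14, then 6.07 and 6.52 CPM. The granulocyte factors csf3a and csf3b and the interleukin 19-like il19l stayed at or under 0.703 CPM in every wildtype library.

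Of 10 tested chemokines, 5 fell (against 8.95% of all genes), 1 rose (against 6.32%) and 4 were not called. This tally is a description, since most of them had been listed as decreased in sorted cells. ccl27b, whose mammalian relative is made by skin keratinocytes and attracts T cells, stood at 223 and 244 CPM at 0 dpa, 11.9 and 10.4 CPM at 1 dpa, and 27.0 and 29.2 CPM at 4 dpa. Its log2 fold change at 1 dpa was -4.39 ± 0.21 (edgeR adjusted p = 1.18e-06), the largest decrease among the members. ccl25b, related to a mammalian chemokine of thymus and gut, stood at 189 and 122, then 15.8 and 13.2, then 35.4 and 34.3 CPM. Both genes were lowest at 1 dpa, and their differences between 1 and 4 dpa, although without overlap, were not called (edgeR adjusted p = 0.311 for ccl25b and 0.132 for ccl27b). ccl20b, related to the ligand of mammalian CCR6, stood at 13.1 and 11, then 0.717 and 0.700, then 3.97 and 5.11 CPM. The log2 fold changes at 1 dpa were -3.42 ± 0.25 for ccl25b and -4.08 ± 0.26 for ccl20b (edgeR adjusted p = 1.56e-05 and 5.68e-06).

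ccl44 and cxcl18b fell as well at 1 dpa. ccl44, for which no role is stated here, stood at 3.48 and 6.48, then 0.391 and 0.659, then 2.66 and 2.22 CPM. cxcl18b, a chemoattractant of zebrafish neutrophils, stood at 36.9 and 26.3, then 11 and 8.52, then 23.4 and 27.2 CPM. The log2 fold changes were -3.25 ± 0.53 and -1.70 ± 0.24 (edgeR adjusted p = 0.00385 and 0.0125). In both genes the 1 dpa pair lay below all other wildtype libraries. The exception among the called chemokines was ccl19a.2, related to a mammalian ligand of CCR7, with 11.2 and 10.1 CPM at 0 dpa, 56.1 and 47.9 CPM at 1 dpa, and 49.2 and 31.5 CPM at 4 dpa. It rose by a log2 fold change of 2.28 ± 0.38 (edgeR adjusted p = 0.00783). The neutrophil chemoattractant cxcl8b.1 stood between 5.84 and 8.92 CPM at 0 and 1 dpa and at 3.36 and 4.02 CPM at 4 dpa, with no call.

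All 3 called increases among 16 receptors at 1 dpa were in the TNF receptor family. tnfrsf11b encodes osteoprotegerin, the decoy receptor that binds RANKL, and stood at 13.7 and 14.2, then 56.8 and 81.8, then 13 and 9.64 CPM. tnfrsf18, known in mammals as GITR, stood at 2.23 and 1.19, then 11.8 and 14.2, then 3.06 and 2.11 CPM. tnfrsf19 (TROY in mammals) stood at 10.9 and 14.3, then 64.3 and 58.0, then 23.6 and 21.3 CPM. All had their highest libraries at 1 dpa, with log2 fold changes of 2.32 ± 0.38, 2.89 ± 0.43 and 2.28 ± 0.21 (edgeR adjusted p = 0.00683, 0.00277 and 0.000207).

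Receptors that fell at 1 dpa were il20ra and cxcr4a. il20ra, a subunit of the receptors for the epidermal cytokines of the interleukin 20 group, stood at 68.6 and 85.8, then 12.4 and 12.3, then 13.3 and 13.5 CPM. cxcr4a, a receptor of Cxcl12, stood at 87.4 and 242, then 27.9 and 29.1, then 88.2 and 89.2 CPM. The 0 dpa replicates of cxcr4a differed widely, and the lower one lay close to the 4 dpa pair. The log2 fold changes at 1 dpa were -2.64 ± 0.29 and -2.53 ± 0.41 (edgeR adjusted p = 0.000485 and 0.00502). The IL-11 receptor il11ra stood at 3.18 and 3.41, then 5.93 and 4.28, then 4.32 and 5.15 CPM, with no call at any time. The other 10 receptors were not called at 1 dpa.

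Of the feedback inhibitors 1 of 7 rose. tnfaip3, which encodes the NF-kB inhibitor A20, stood at 12.4 and 19.8, then 62.0 and 73.3, then 8.23 and 7.45 CPM. It was highest in the 1 dpa pair, with a log2 fold change of 2.08 ± 0.35 (edgeR adjusted p = 0.0106). stat3, the main STAT of the interleukin 6 and interleukin 11 pathway, stood at 88.7 and 87.2, then 94.5 and 101, then 56.7 and 56.1 CPM. Its inhibitor socs3b stood at 57.7 and 34.9, then 132 and 156, then 117 and 95.8 CPM, and the log2 fold change of 1.64 ± 0.46 at 1 dpa missed the 2-fold test (edgeR adjusted p = 0.151). The IkB-alpha gene nfkbiaa stood at 44.9 and 77.5, then 85.3 and 98.6, then 49.9 and 64.3 CPM.

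The leukocyte genes among the members did not pass the test at 1 or 4 dpa. mpeg1.2, a macrophage gene of the perforin family, stood at 48.4 and 33.8, then 17.1 and 17.2, then 19.4 and 21.2 CPM, a log2 fold change of -1.27 ± 0.20 at 1 dpa (edgeR adjusted p = 0.150). The lysozyme gene lyz stood at 1.19 and 1.36, then 0.456 and 0.206, then 0.201 and 0.702 CPM. irf8, a transcription factor that macrophages need for their development, stood at 6.93 and 5.03, then 7.82 and 6.54, then 10.6 and 11.6 CPM. The 1 dpa pairs of mpeg1.2 and lyz lay below their 0 dpa pairs, whereas those of irf8 overlapped.

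**Figure D1:**
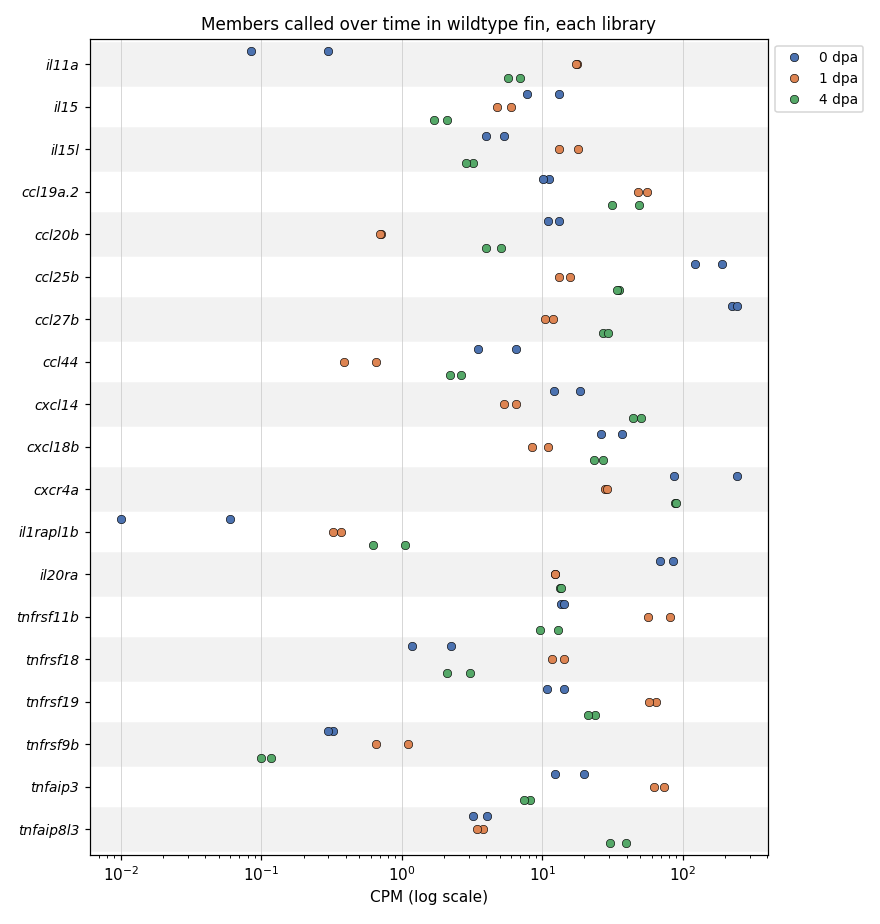
Level of members called in any of 3 comparisons over time in wildtype fin, in CPM on a log scale, with each point 1 library (blue 0 dpa, orange 1 dpa, green 4 dpa; a level of 0 is drawn at 0.01 CPM). The blue pair of il11a lies between 0.0852 and 0.297 CPM and its orange pair at 17.4 and 17.6 CPM, while for ccl20b, ccl25b and ccl27b the orange pairs lie lowest.

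The late state was read at 4 dpa. Against 0 dpa, 4 members rose (6.56%, against 6.69% of all genes) and 4 fell (6.56%, against 4.78%), shares close to those of all genes. il11a and ccl19a.2 were called as increased and ccl25b, ccl27b and il20ra as decreased at both 1 and 4 dpa. The log2 fold changes at 4 dpa were 4.89 ± 0.36 for il11a, 1.92 ± 0.38 for ccl19a.2, -2.16 ± 0.24 for ccl25b, -3.06 ± 0.20 for ccl27b and -2.53 ± 0.29 for il20ra (edgeR adjusted p = 3.48e-05, 0.0391, 0.00131, 3e-05 and 0.00109). il15 was called only at 4 dpa, with -2.44 ± 0.32 (edgeR adjusted p = 0.00263). The members' median was -0.56, against -0.01 over all genes, a description, since most members were listed as decreased over these days in sorted cells.

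The other increases at 4 dpa were in tnfaip8l3 and il1rapl1b. tnfaip8l3 shares only the start of its name with the TNF genes and belongs to a family of phosphoinositide-binding proteins. It stood at 4.08 and 3.2, then 3.81 and 3.46, then 30.6 and 39.5 CPM, with a log2 fold change of 3.26 ± 0.19 against 0 dpa (edgeR adjusted p = 1.85e-05). il1rapl1b, a synaptic protein named for its likeness to the interleukin 1 receptor accessory protein, stood at 0.0595 and 0, then 0.326 and 0.370, then 1.05 and 0.624 CPM. Both genes were highest in the 4 dpa pair. Since the 0 dpa libraries of il1rapl1b held at most 3 counts, its increase is a lower bound, at least 6.56-fold against the level of 3 counts in a library (edgeR adjusted p = 0.00905).

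Between 1 and 4 dpa, 3 members rose (4.92%, against 5.84% of all genes) and 5 fell (8.20%, against 3.13%). The decreases were in tnfaip3, tnfrsf11b, tnfrsf18 and il15l, all of which had risen at 1 dpa, and in tnfrsf9b, the relative of mammalian 4-1BB. Their log2 fold changes were -3.11 ± 0.37, -2.62 ± 0.39, -2.34 ± 0.43 and -2.36 ± 0.22 (edgeR adjusted p = 0.000607, 0.00423, 0.0175 and 0.000276). tnfrsf9b stood at 0.327 and 0.298, then 1.11 and 0.659, then 0.100 and 0.117 CPM, a decrease of at least 5.86-fold against the level of 3 counts (edgeR adjusted p = 0.0494). cxcl14, an epithelial chemokine, stood at 12.1 and 18.5, then 5.37 and 6.46, then 44.2 and 50.8 CPM. The increases were in cxcl14 (3.01 ± 0.32), ccl20b (2.68 ± 0.27) and tnfaip8l3 (3.27 ± 0.19), with edgeR adjusted p of 0.000337, 0.000339 and 6.14e-06.

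The wildtype calls were not equally firm. With each library left out in turn, 7 of 15 calls at 1 dpa, 6 of 8 at 4 dpa and 5 of 8 between 1 and 4 dpa held throughout, and no direction changed. For 1 against 0 dpa, ccl19a.2, cxcr4a and il15l no longer passed without wildtype 0 dpa replicate 2 (edgeR adjusted p = 0.0614, 0.0772 and 0.0509), where cxcr4a changed by -1.60. cxcl18b, tnfaip3 and tnfrsf11b no longer passed without wildtype 0 dpa replicate 1 (0.102, 0.0966 and 0.0568) or without 1 dpa replicate 2 (0.0978, 0.0688 and 0.0671), and ccl44 and il15l without 1 dpa replicate 1 (0.0501 and 0.0736). ccl19a.2 at 4 dpa was lost without wildtype 0 dpa replicate 1 or 2 or 4 dpa replicate 1 (adjusted p = 0.128, 0.161 and 0.209), and il1rapl1b without 0 dpa replicate 2 (0.0558). DESeq2 did not call cxcl18b and il15l at 1 dpa (DESeq2 adjusted p = 0.112 and 0.0640), ccl19a.2 at 4 dpa (0.194), or tnfrsf18 and tnfrsf9b between 1 and 4 dpa (0.0600 and 0.472). Between 1 and 4 dpa the count of decreases was 3 without wildtype 1 dpa replicate 2 or 4 dpa replicate 1, and 2 without 4 dpa replicate 2.

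Markers of other cell types shifted over the same days. Of 15 measured lymphocyte markers 11 were tested, 8 of which fell at 1 dpa. Their summed level was 64.4 to 68.4 CPM at 0 dpa, 16.5 to 16.9 CPM at 1 dpa and 39.0 to 41.1 CPM at 4 dpa in wildtype, with rag1 at 0 counts in all 6 libraries. The summed level of 7 pan-leukocyte genes was 249 to 275, then 250 to 250, then 281 to 322 CPM, and none of them was called at 1 or 4 dpa by edgeR, where 0 of 7 at 1 dpa and 0 of 7 at 4 dpa had an unadjusted p under 0.05. For the 11 macrophage markers the sum was 2145 to 2644, then 776 to 820, then 1241 to 1318 CPM, and for the 5 neutrophil markers 774 to 872, then 1031 to 1120, then 866 to 977 CPM. Such sums follow their most abundant genes and do not measure cell numbers. The macrophage list includes cd74a and cd74b, which are not particular to macrophages, and lyz made up little of the neutrophil sum. The 9 osteoblast markers stood at 2730 to 3035, then 148 to 197, then 16862 to 23992 CPM. The part of these shifts in the members' changes was not tested.

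The pathways around the members were followed with 84 further cytokine, receptor and signalling genes, of which 73 were tested. At 1 dpa 8 of them rose (11%, against 6.32% of all genes) and 8 fell (11%, against 8.95%). The ligand-side genes held 1 increase and 4 decreases among 21 tested, the receptors 6 and 4 among 24, and the signalling genes 1 and 0 among 28. il6st, which encodes gp130, stood at 52.5 and 45.4, then 160 and 153, then 102 and 87.5 CPM. It rose at 1 dpa by a log2 fold change of 1.68 ± 0.19 (edgeR adjusted p = 0.00435), all early libraries lying above those of 0 dpa. il1b, the interleukin 1 beta gene, stood at 1.46 and 1.36, then 4.40 and 5.35, then 3.87 and 5.81 CPM and did not pass (1.78 ± 0.37). The interleukin 6 gene il6 and the TNF gene tnfa stayed at or under 0.351 CPM in all wildtype libraries.

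In fosl1a mutant fins 3 of 61 members rose (4.92%, against 4.78% of all genes) and 7 fell (11.5%, against 5.24%) at 1 against 0 dpa. il11a and ccl19a.2 were among those that rose, and ccl20b, ccl25b, ccl27b, csf1a, cxcl14, il20ra and nfkbiab fell. At 4 against 0 dpa 6 members rose (9.84%, against 6.93%) and 17 fell (27.9%, against 8.06%), and at 4 against 1 dpa 4 rose (6.56%, against 5.98%) and 9 fell (14.8%, against 3.90%). Most members were listed as decreased from 0 to 4 dpa in sorted cells, so that the shares at 4 dpa are a description. il11a stood at 0.158 and 0.0456, then 8.59 and 8.32, then 7.04 and 8.95 CPM. Since the 0 dpa mutant libraries held at most 3 counts of il11a, the increases are lower bounds, at least 35.8-fold at 1 dpa and at least 33.8-fold at 4 dpa. With each library left out in turn, 5 of the 10 calls at 1 dpa held (not ccl25b, csf1a, cxcl14, il20ra and nfkbiab), as did 17 of the 23 at 4 against 0 dpa (not ccl19a.1, ccr6b, csf3a, csf3b, il15l and irf7).

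The question of the mutant experiment was how loss of Fosl1a alters the response, and the genotypes were compared at each time by edgeR's test against no difference. In uninjured fins 3 members differed (4.92%, against 0.352% of all genes, both directions together). These 3 were higher in the mutant. nfkbiab, an IkB-alpha gene, stood at 57.7 and 101 CPM in wildtype and 252 and 346 CPM in mutant fins. The receptor gene ccr9a stood at 7.56 and 13.3 against 36.7 and 34.9 CPM, and ccl19b at 1.93 and 1.79 against 5.12 and 10.4 CPM. The genotypes did not overlap in these genes, nor in some members not called, such as cxcl8b.1. The log2 differences were 1.91 ± 0.27 for nfkbiab, 1.78 ± 0.26 for ccr9a and 2.07 ± 0.34 for ccl19b (edgeR adjusted p = 0.0115, 0.0155 and 0.0280). With only these 4 libraries in the fit, none of the 3 was called (edgeR adjusted p = 0.649, 0.494 and 0.527). The count was 1 without wildtype 0 dpa replicate 1, 5 without mutant 0 dpa replicate 1 and 8 without mutant 0 dpa replicate 2, the pair that correlated least.

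At 1 dpa, 6 members were higher in the mutant (9.84%, against 0.724% of all genes) and 2 were lower (3.28%, against 0.506%). Of the 6 higher members 4 were chemokines, among them ccl20b, ccl25b and ccl27b, which had fallen in both genotypes. ccl25b stood at 15.8 and 13.2 CPM in wildtype and 71.8 and 70.6 CPM in mutant fins, and ccl27b at 11.9 and 10.4 against 39.4 and 43.5 CPM. ccl20b stood at 0.717 and 0.700 against 1.84 and 2.30 CPM, and ccl19b at 0.782 and 0.535 against 3.87 and 3.09 CPM. No library of one genotype overlapped the other in these 4 genes, nor in some members not called, such as irf2a. The log2 differences were 2.29 ± 0.24, 1.89 ± 0.19, 1.55 ± 0.29 and 2.37 ± 0.39 (edgeR adjusted p = 0.00198, 0.00198, 0.0301 and 0.0183).

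The other differences at 1 dpa were in tnfaip3, il17rd, irf8 and il17rel. tnfaip3 stood at 62.0 and 73.3 CPM in wildtype and 20.8 and 19.6 CPM in mutant fins, and il17rd, which encodes the FGF antagonist Sef, at 29.5 and 31.3 against 16.8 and 16.5 CPM. irf8 stood at 7.82 and 6.54 against 13.7 and 14.6 CPM, and the interleukin 17 receptor relative il17rel at 0.456 and 0.700 against 2.21 and 1.67 CPM. tnfaip3 and il17rd were thus lower and irf8 and il17rel higher in both mutant libraries. The log2 differences were -1.74 ± 0.34, -0.86 ± 0.18, 0.98 ± 0.20 and 1.75 ± 0.36 (edgeR adjusted p = 0.0381, 0.0436, 0.0436 and 0.0432). il11a, with 17.6 and 17.4 against 8.59 and 8.32 CPM, did not pass (-1.05 ± 0.24, edgeR adjusted p = 0.0675). None of the 8 calls held with every library left out in turn: the count was 0 without wildtype 1 dpa replicate 2, and 2 without wildtype replicate 1, mutant replicate 1 or mutant replicate 2.

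The 15 lymphocyte markers summed to 16.5 to 16.9 CPM in wildtype and 24.9 to 25.8 CPM in mutant fins at 1 dpa, with cd79b and rag1 at 0 counts in both. None of the 11 tested was called between genotypes by edgeR at 1 dpa, which does not show that their levels were equal. The 11 macrophage markers, cd74a and cd74b among them, summed to 776 to 820 against 1084 to 1096 CPM and the 7 pan-leukocyte genes to 250 to 250 against 320 to 323 CPM. These sums do not measure cell numbers. The part of the markers in the chemokine differences was not tested.

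The change from 0 to 1 dpa differed between genotypes in 3 members (4.92%, against 0.506% of all genes). The decrease was smaller in the mutant for ccl25b, by 1.86 ± 0.33 on the log2 scale, and for ccl27b, by 1.58 ± 0.27 (edgeR adjusted p = 0.0331 and 0.0256). nfkbiab went from 57.7 and 101 to 195 and 184 CPM in wildtype and from 252 and 346 to 88.2 and 97.2 CPM in mutant fins, a difference of -2.94 ± 0.38 (edgeR adjusted p = 0.00502). The mutant decrease was called and the wildtype change was not. The call of the mutant decrease was lost without mutant 0 dpa replicate 2 or mutant 1 dpa replicate 1 or 2 (edgeR adjusted p = 0.154, 0.137 and 0.0965), with only the compared groups in the fit (0.0646) and by DESeq2 (DESeq2 adjusted p = 0.101). The count was 1 without wildtype 1 dpa replicate 1 or 2 or mutant 1 dpa replicate 1 or 2, and 5 without mutant 0 dpa replicate 1.

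At 4 dpa ccl20b, ccl25b and ccl27b, higher in the mutant at 1 dpa, were lower in it. Of 61 members, 8 were higher in the mutant (13.1%, against 12.7% of all genes) and 11 lower (18%, against 16.8%), shares close to those of all genes. ccl25b stood at 35.4 and 34.3 CPM in wildtype and 12.1 and 13.8 CPM in mutant fins, ccl27b at 27.0 and 29.2 against 12 and 8.91 CPM, and ccl20b at 3.97 and 5.11 against 1.3 and 1.72 CPM. cxcl8b.1 stood at 3.36 and 4.02 against 0.747 and 1.27 CPM, and cxcl14 at 44.2 and 50.8 against 18 and 30.5 CPM. All 5 chemokines were lower in both mutant libraries. The log2 differences were -1.43 ± 0.24, -1.43 ± 0.19, -1.59 ± 0.25, -1.88 ± 0.34 and -0.97 ± 0.29 (edgeR adjusted p = 0.00380, 0.00285, 0.00331, 0.00451 and 0.0306).

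The other members lower in the mutant at 4 dpa were ccr9a (11.9 and 13.2 against 4.32 and 6.21 CPM), il15l (3.21 and 2.85 against 1.73 and 1.76 CPM), tnfaip8l3 (30.6 and 39.5 against 16.2 and 16.9 CPM) and the interferon factors irf2a, irf7 and irf9. irf2a stood at 22.4 and 17.2 against 8.69 and 8.62 CPM, irf7 at 3.97 and 6.05 against 1.57 and 2.57 CPM, and irf9 at 34.2 and 37.0 against 15.6 and 23.0 CPM. Higher in the mutant were il17rd (42.2 and 41.7 against 104 and 86.7 CPM), il1rapl1b (1.05 and 0.624 against 4.64 and 3.55 CPM), tnfrsf19 (23.6 and 21.3 against 46.4 and 44.7 CPM) and il20ra (13.3 and 13.5 against 27.6 and 24.3 CPM). tnfaip3 (8.23 and 7.45 against 17.8 and 17.1 CPM), nfkb1 (7.53 and 7.34 against 17.0 and 12 CPM), socs5a (19.8 and 19.3 against 39.2 and 26.4 CPM) and stat3 (56.7 and 56.1 against 93.7 and 84.5 CPM) were higher too. These 14 differences lay between -1.28 and 2.30 on the log2 scale, with edgeR adjusted p from 0.00317 to 0.0394. The genotypes did not overlap in them, nor in some members not called, such as irf1a and irf2bpl. nfkb1 encodes the p50 subunit of NF-kB and socs5a a suppressor of cytokine signalling.

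Marker levels also differed between the genotypes at 4 dpa. The 5 neutrophil markers summed to 866 to 977 CPM in wildtype and 364 to 424 CPM in mutant fins, the 10 epidermal markers to 40270 to 46436 against 55687 to 65848 CPM, and the 11 macrophage markers to 1241 to 1318 against 1420 to 1773 CPM. Each sum follows its most abundant genes and does not measure cell numbers, and lyz made up little of the neutrophil sum. A list of 11 immediate early genes (FOS, JUN, EGR and related genes), chosen after the values were seen, summed to 1175 to 1421 against 593 to 838 CPM. Their part in the members' differences was not tested.

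The calls at 4 dpa leaned on single libraries. The count of 19 fell to 1 without mutant 4 dpa replicate 1, to 7 without wildtype 4 dpa replicate 2 and to 9 without wildtype 4 dpa replicate 1, and ccl27b was the member that held throughout. The change from 0 to 4 dpa differed between genotypes in 18 members (29.5%, against 18.5% of all genes, both directions together). The largest were in ccr9a and cxcl8b.1, each with -3.04 on the log2 scale (SE 0.38 and 0.43). This count was 7 without wildtype 0 dpa replicate 2, 8 and 2 without wildtype 4 dpa replicate 1 and 2, 29 without mutant 0 dpa replicate 2 and 2 without mutant 4 dpa replicate 1.

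**Figure D2:**
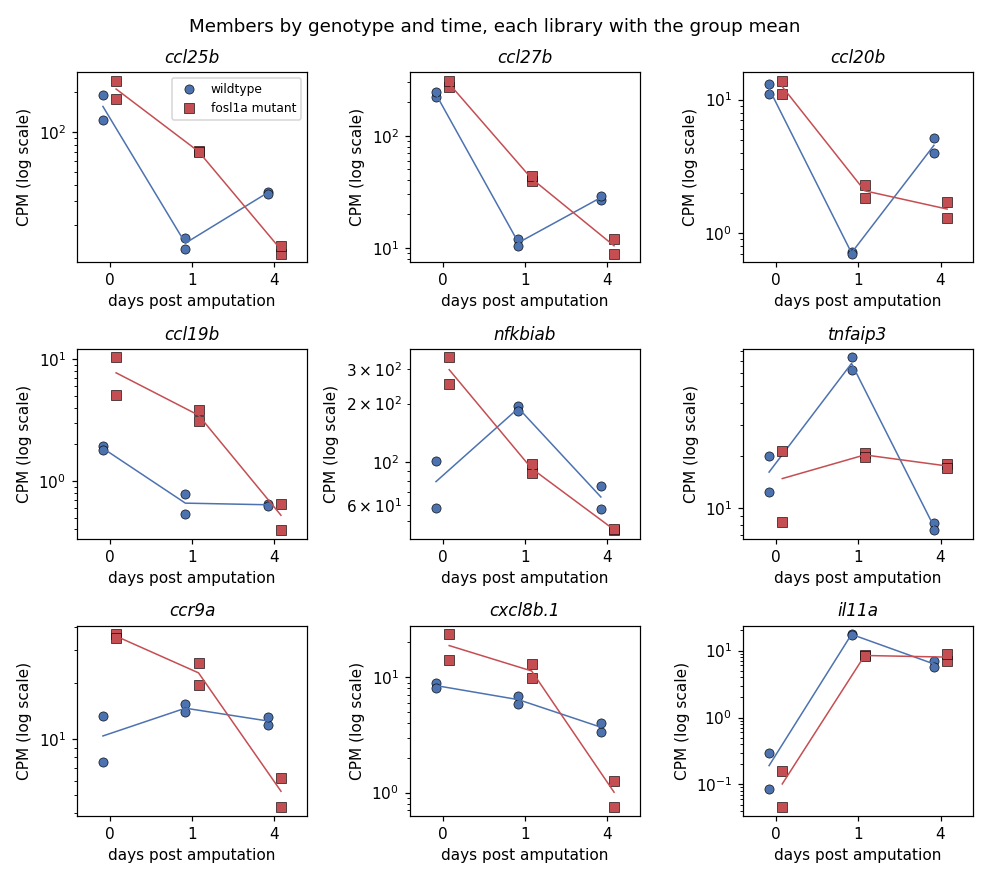
Levels of 9 members in wildtype (blue circles) and fosl1a mutant fins (red squares) at 0, 1 and 4 dpa, in CPM on a log scale, each point 1 library and each line through the group means. For ccl25b the mutant pair lies above the wildtype pair at 1 dpa (71.8 and 70.6 against 15.8 and 13.2 CPM) and below it at 4 dpa (12.1 and 13.8 against 35.4 and 34.3 CPM).

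Levels in sp7+ and sp7- cells, measured after dissociation and sorting, were compared at each time. The sorted libraries had served to choose 46 of the members by their change over time, and the comparison of sp7+ with sp7- cells shares those libraries. Of these, 26 were listed as decreased in sp7+ and 25 as decreased in sp7- cells. Such a listing favours genes high at 0 dpa in that population, so that the counts at 0 dpa are a description. At 0 dpa 7 of 63 members were higher in sp7+ cells, a share near the 9.56% of all 18641 tested genes. Another 17 were higher in sp7- cells, that is lower in sp7+ cells (27.0%, against 8.44%). The sp7+ fraction carried markers of its label, since 6 of 9 osteoblast markers were higher in it at 0 dpa, with sp7 (named, like krt4, cd74a and cd74b, after its values were seen) at 30.0 and 31.9 CPM against 0.252 and 0.145 CPM. Of 10 epidermal markers, 3 were higher (krt4 at 35992 and 29420 against 1149 and 1297 CPM) and 4 lower in sp7+ cells at 0 dpa, and all 10 summed to 59200 to 69186 against 76524 to 78227 CPM. The part of epidermal transcripts in the members' levels was not tested.

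Of the called members, 4 of 4 ligands, 7 of 8 chemokines and 5 of 7 receptors were on the sp7- side at 0 dpa. Since 40 members were listed only as decreased over time in these libraries, this tally is a description. Among the members lower in sp7+ cells, the 6 largest differences were in lyz, cxcl8b.1, ccl35.2, ccl19a.2, csf3b and csf3a. lyz stood at 1.79 and 2.73 CPM in sp7- and 0.0444 and 0.0399 CPM in sp7+ cells, at least 17.0-fold lower in sp7+ cells against the level of 3 counts (edgeR adjusted p = 7.52e-05). cxcl8b.1 stood at 55.1 and 44.8 against 3.86 and 2.91 CPM, and csf3b, a granulocyte colony-stimulating factor, at 29.7 and 11.2 against 2.57 and 1.39 CPM. The populations did not overlap in any of these genes, nor in some members not called, such as irf7. ccl35.2 stood at 1.95 and 3.04 against 0 and 0.399 CPM, ccl19a.2 at 7.99 and 4.49 against 0.621 and 0.478 CPM, and csf3a at 2.93 and 1.16 against 0.222 and 0.199 CPM. The log2 differences, sp7+ minus sp7-, were -3.88 ± 0.28 for cxcl8b.1, -3.58 ± 0.69 for ccl35.2, -3.50 ± 0.50 for ccl19a.2, -3.37 ± 0.50 for csf3b and -3.25 ± 0.62 for csf3a (edgeR adjusted p = 3.36e-06, 0.00647, 0.000917, 0.00115 and 0.00665).

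The other 11 members lower in sp7+ cells at 0 dpa included il11a, il34, cxcr4a and cxcl18b. il11a stood at 32.6 and 23.1 CPM in sp7- and 3.91 and 5.86 CPM in sp7+ cells, il34 at 4.28 and 2.70 against 0.754 and 0.837 CPM, and cxcr4a at 690 and 241 against 70.0 and 35.5 CPM. cxcl18b stood at 266 and 99.8 against 31.7 and 32.3 CPM. In each the lower sp7- library exceeded both sp7+ libraries, although the sp7- replicates differed widely in cxcr4a and cxcl18b. Log2 differences were -2.51 ± 0.27, -2.12 ± 0.36, -3.14 ± 0.46 and -2.51 ± 0.43 (edgeR adjusted p = 0.000229, 0.00908, 0.00108 and 0.00504). The rest were ccl25b, ccl27b, ccr9a, cxcl14, il22ra2, tnfrsf18 and tnfrsf9b, with log2 differences between -3.17 and -2.06.

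The members higher in sp7+ cells at 0 dpa, a share near that of all genes, included mpeg1.3. mpeg1.3 stood at 52.0 and 48.7 CPM in sp7+ and 0.157 and 0.0966 CPM in sp7- cells, a log2 difference of 8.64 ± 0.35 (edgeR adjusted p = 4.59e-08). ccl20b stood at 8.52 and 5.30 against 0.0629 and 0.0483 CPM, at least 73.2-fold higher, and il20ra at 156 and 76.7 against 4.18 and 2.0 CPM. None of the sp7- libraries came near the sp7+ level in these genes. irf1a, an interferon-induced factor, stood at 26.9 and 22.0 against 1.2 and 1.52 CPM, ccr6b, the relative of the mammalian CCL20 receptor, at 8.43 and 6.66 against 0.535 and 0.676 CPM, and stat4 at 44.2 and 34.6 against 4.81 and 2.80 CPM. Log2 differences were 5.25 ± 0.41 for il20ra, 4.16 ± 0.29 for irf1a, 3.62 ± 0.35 for ccr6b and 3.38 ± 0.31 for stat4 (edgeR adjusted p = 4.1e-06, 2.53e-06, 4.29e-05 and 2.78e-05). stat3 was higher by 1.66 ± 0.22, with 371 and 326 against 128 and 93.1 CPM (edgeR adjusted p = 0.00981).

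Of the 24 calls at 0 dpa 19 held with each library left out in turn. csf3a, cxcl18b and il34 were lost without sp7- 0 dpa replicate 1 (edgeR adjusted p = 0.0751, 0.0827 and 0.0728), stat3 without sp7- replicate 2 (0.0995) and ccr9a without sp7+ replicate 1 (0.0962). DESeq2 did not call ccr9a and il34 (DESeq2 adjusted p = 0.112 and 0.175).

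Most of the leukocyte genes below did not follow mpeg1.3. mpeg1.2 stood at 19.6 and 10.6 CPM in sp7+ and 7.30 and 6.50 CPM in sp7- cells, with no call. A further gene named MPEG1 in the gene name table, added after the values were seen, stood at 0.266 and 0.518 against 3.74 and 5.0 CPM. All 7 measured pan-leukocyte genes were lower in sp7+ cells at 0 dpa, among them ptprc (1.29 and 4.07 against 12.3 and 18.2 CPM), lcp1 (7.01 and 14.5 against 43.9 and 56.7 CPM) and coro1a (7.63 and 20.2 against 44.8 and 72.8 CPM), and their sum was 38 to 84.7 against 230 to 333 CPM. Of 11 macrophage markers 3 were higher and 5 lower in sp7+ cells. Their sum of 18317 to 24150 against 4931 to 4962 CPM came mostly from cd74a and cd74b, which take part in antigen presentation in many cell types. In unsorted fins mpeg1.3 stayed at or under 0.351 CPM in every library.

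At 4 dpa 9 members were higher (14.3%, against 5.87% of all genes) and 3 lower in sp7+ cells (4.76%, against 3.14%). The 4 dpa libraries had also served to choose members by their change over time, so that these counts are a description as well. il20ra stood at 31.7 and 34.8 CPM in sp7+ and 0.590 and 0.511 CPM in sp7- cells, ccr6b at 1.67 and 2.34 against 0.0932 and 0.0365 CPM, and mpeg1.3 at 1.34 and 1.75 against 0.0311 and 0.0183 CPM. irf1a stood at 3.99 and 4.36 against 0.450 and 0.256 CPM, ccl19a.1 at 3.93 and 1.46 against 0.155 and 0.164 CPM, and il15 at 0.347 and 0.487 against 0.0466 and 0.0365 CPM. In all 6 every sp7+ library lay above every sp7- library. The populations also did not overlap in some members not called, such as ccl44. Log2 differences were 5.90 ± 0.44 for il20ra, 4.84 ± 0.45 for ccr6b, 4.07 ± 0.53 for ccl19a.1 and 3.53 ± 0.31 for irf1a (edgeR adjusted p = 4.66e-06, 4.27e-05, 0.000637 and 4.32e-05). mpeg1.3 was at least 28.2-fold and il15 at least 7.61-fold higher in sp7+ cells (edgeR adjusted p = 6.44e-06 and 0.00835), and ccl20b, stat4 and tnfrsf11b were the other increases.

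tnfrsf11b was called between the populations at 4 dpa and not at 0 dpa. It stood at 1072 and 473 CPM in sp7- and 848 and 478 CPM in sp7+ cells at 0 dpa, and at 15.6 and 12.5 against 65.3 and 75.3 CPM at 4 dpa. The log2 difference was -0.22 ± 0.36 at 0 dpa, with overlapping libraries, and 2.32 ± 0.38 at 4 dpa (edgeR adjusted p = 0.00805), and the difference between the times was not tested. The members lower in sp7+ cells at 4 dpa were csf3b, cxcl8b.1 and tnfrsf9b, with -2.44 ± 0.52, -2.17 ± 0.28 and -2.21 ± 0.43 (edgeR adjusted p = 0.0318, 0.00275 and 0.0255). With sp7+ and sp7- cells of 1 replicate taken as a pair within each time point (replicate block), 5 were lower, with ccl44 and cxcr4a added, and with a block that gave a replicate number the same shift at both times, 3 were lower. Without sp7- 4 dpa replicate 1 none was lower, and 1 without sp7- replicate 2 or sp7+ replicate 2, while 5 members were higher without sp7- replicate 2. The 5 calls that held with each library left out were those of ccl19a.1, ccr6b, il20ra, irf1a and mpeg1.3, and DESeq2 did not call ccl20b, csf3b, il15, stat4 and tnfrsf9b (DESeq2 adjusted p between 0.0587 and 0.266).

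**Figure D3:**
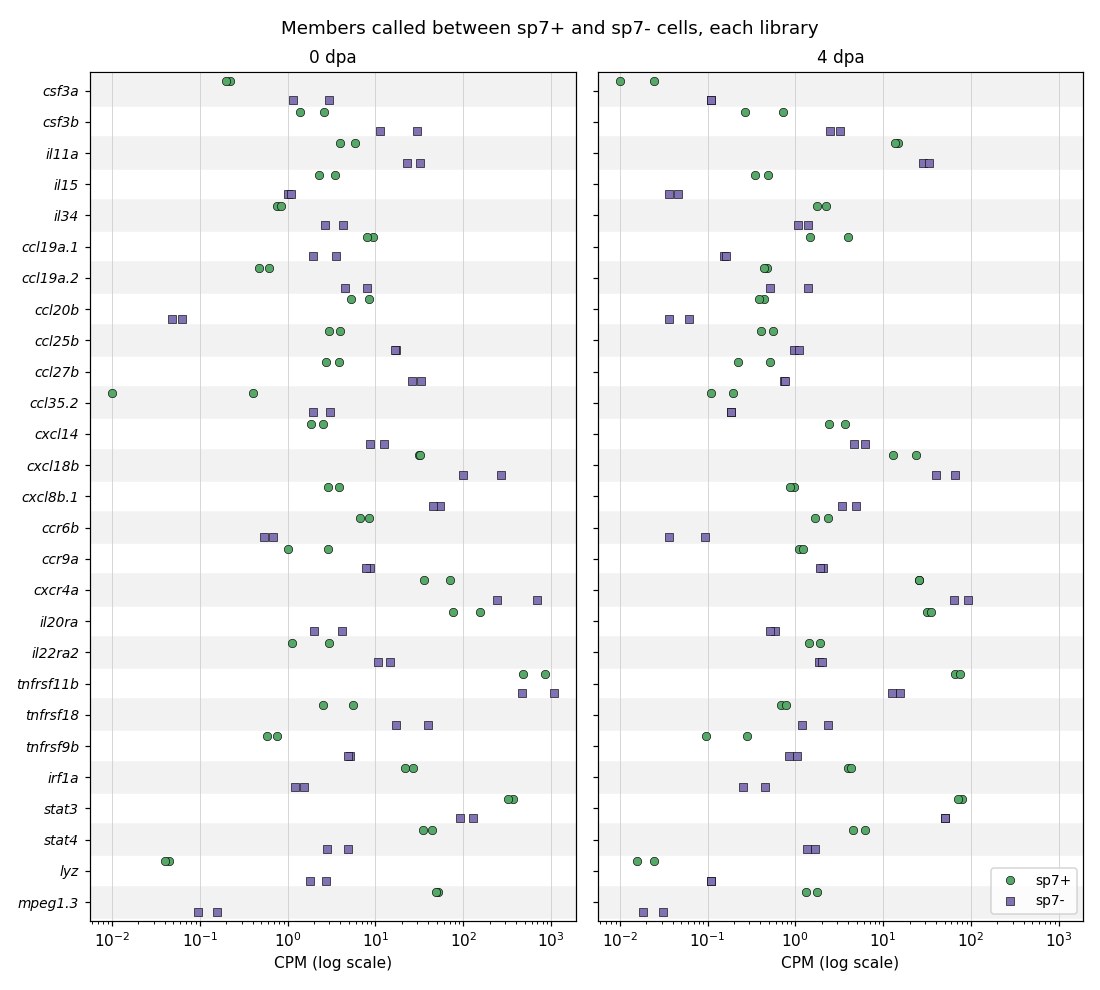
Levels of the members called between sp7+ (green circles) and sp7- cells (purple squares) at 0 dpa (left) or 4 dpa (right), in CPM on a log scale, each point 1 library (a level of 0 is drawn at 0.01 CPM). mpeg1.3, il20ra and ccr6b lie to the right in sp7+ cells at both times, while csf3b, cxcl8b.1 and tnfrsf9b lie to the right in sp7- cells.

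Over time, the sorted cells are described only, since 46 members were listed for this change. Of 63 members, 6 were higher in sp7+ cells at 4 dpa, a share under the 14.4% of all genes, and 30 lower (against 13.1%). In sp7- cells 6 were higher, a share near the 8.85% of all genes, and 27 lower (against 8.26%). The members' medians were -1.67 in sp7+ and -1.40 in sp7- cells, against 0.16 and -0.02 over all genes. Among the higher ones, tnfsf11 went from 0.566 and 0.386 to 3.71 and 3.50 CPM in sp7- cells and from 0.266 and 0.319 to 1.39 and 1.51 CPM in sp7+ cells, and tnfrsf19 from 10.9 and 6.98 to 35.1 and 39.3 CPM in sp7- cells. The RANKL gene and its decoy tnfrsf11b went in opposite directions in both sorted populations. This follows in part from the choice, since tnfsf11 was listed as increased in sp7- cells and tnfrsf11b as decreased in both populations. In unsorted fins neither was called at 4 against 0 dpa. The log2 fold changes of tnfrsf11b were -0.30 ± 0.37 in wildtype and -0.35 ± 0.37 in mutant fins, and those of tnfsf11 1.09 ± 0.29 and 1.04 ± 0.31. stat3 went from 371 and 326 to 80.0 and 71.5 CPM and mpeg1.3 from 52.0 and 48.7 to 1.34 and 1.75 CPM in sp7+ cells.

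The calls at 4 against 0 dpa in unsorted fins were set beside those in sorted cells. Of the 30 members called as lower in sp7+ cells, 29 were tested in wildtype fin. At 4 dpa 4 of these were lower (against 4.78% of all genes), none higher (against 6.69%) and 25 not called. Of the 27 lower in sp7- cells 26 were tested, with 4 lower, 1 higher and 21 not called. The higher one was ccl19a.2, with 7.99 and 4.49 CPM at 0 dpa and 1.41 and 0.511 CPM at 4 dpa in sp7- cells. Of the 6 members higher in sp7+ cells, 3 were higher in wildtype fin as well, namely il11a, il1rapl1b and tnfaip8l3. In mutant fins, 13 of the 29 were lower, none higher and 16 not called. Of the 26, 11 were lower, 1 higher and 14 not called, against 8.06% lower and 6.93% higher over all genes. Of the 6 higher in sp7+ cells, 4 were higher in mutant fins. No test was made between the experiments, which differ in strain, dissociation, sorting and normalization.

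At 0 dpa, in tissue labelled uninjured in both, sorted and unsorted libraries were set side by side, although each experiment was normalized on its own. Of the 61 members tested in both experiments, 13 had all 4 sorted libraries above all 4 unsorted libraries (21.3%, against 8.97% of the 17830 genes tested in both), and 20 had all below (32.8%, against 49.5%). The 13 comprised 4 of 7 feedback inhibitors, 4 of 16 receptors, 3 of 13 transcription factors and 2 of 9 cytokine ligands, and none of 11 chemokines. tnfrsf11b stood between 473 and 1072 CPM in sorted and between 9.54 and 25.8 CPM in unsorted libraries, and il11a between 3.91 and 32.6 CPM against 0.0456 to 0.297 CPM. nfkbiaa stood between 494 and 934 CPM against 44.9 to 111 CPM, and tnfaip3 between 94.6 and 192 CPM against 8.35 to 21.2 CPM. Of the 8 members that rose in wildtype fin at 1 dpa, il11a, tnfrsf11b and tnfaip3 were among the 13, whereas ccl19a.2, il15l and tnfrsf19 lay lower in all sorted libraries.

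The 20 members lower in all sorted libraries, a share under the 49.5% of all genes, included the keratinocyte chemokine ccl27b. ccl27b stood between 2.71 and 33.0 CPM in sorted and between 223 and 310 CPM in unsorted libraries, and ccl25b between 2.97 and 17.3 CPM against 122 to 244 CPM. csf1a stood between 1.24 and 3.96 CPM against 19.5 to 30.0 CPM, mpeg1.2 between 6.50 and 19.6 CPM against 33.8 to 67.2 CPM, and irf8 between 0.533 and 2.08 CPM against 5.03 to 6.94 CPM. At 4 dpa the sp7- cells and wildtype fin lay closer in some of the 13 genes, where nfkbiz, an atypical IkB protein, stood at 116 and 124 against 142 and 70.9 CPM, and tnfrsf11b at 15.6 and 12.5 against 13 and 9.64 CPM.

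The experiments also differed in immediate early genes, which cells induce within minutes of a stimulus. The list of 11 such genes summed to 8223 to 11359 CPM in sp7- and 14886 to 18426 CPM in sp7+ cells at 0 dpa, against 911 to 2914 CPM in wildtype and 1535 to 3607 CPM in mutant fins. fosl1a itself stood between 1286 and 1464 CPM in sorted cells at 0 dpa and between 2.71 and 3.96 CPM in wildtype fins. At 4 dpa the sum was 7278 to 7382 CPM in sp7-, 4740 to 5065 CPM in sp7+ cells and 1175 to 1421 CPM in wildtype fins. Their part in the members' levels was not tested, and strain, dissociation and sorting cannot be told apart. Whether the sequencing runs differed is not given in the sources used here.

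The members called in none of the wildtype, genotype or population comparisons were 16 of 63, among them il10rb, il11ra, il13ra1, il19l, irf2bp2a, irf2bp2b, irf2bpl, irf3, irf4b, nfkb2, nfkbiz, socs1b, socs3b, tnfrsf1b and tnfsf11. irf2bp2a, irf2bp2b and irf2bpl, which share only a name start with the interferon factors, encode transcriptional cofactors. nfkb2, which encodes the p52 subunit of NF-kB, stood between 40.1 and 77.5 CPM in all unsorted and between 27.5 and 81.9 CPM in all sorted libraries.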

How the data were processed

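RNA-seq was performed on 8 sorted and 12 unsorted libraries. The deposited values are raw counts. Per the labels and methods, the authors obtained them with STAR 2.5.2a and featureCounts 1.5.0 on zebrafish genome assembly GRCz10. Read pairs were counted without strand, for every overlapping gene, from unique matches.

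From these counts, each experiment was fitted separately with edgeR 4.0.16 in R 4.3.3 (TMM normalization, filterByExpr with a minimum count of 10, quasi-likelihood fit over all libraries of the experiment, no covariates). Changes over time and between populations were tested against a 2-fold change, and genotypes and their difference in change against no difference, at a Benjamini-Hochberg false discovery rate of 0.05 over all tested genes. The fit was tested on simulated data. A fold against a group with at most 3 counts in each library is a lower bound. Intervals are SE. sp7+ and sp7- cells of 1 replicate came from the same fins per the methods (r of their deviations 0.26 at 0 dpa and 0.13 at 4 dpa).

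The members, pathway lists and marker lists were chosen with earlier results of these data known. Values per library are given for the members called in wildtype (up to 10 a comparison), in a genotype test or between populations (up to 6 a direction), and for 16 genes fixed by name. Other members and the lists are given by counts. Gene symbols came from the study's tables and from the gene name table, with 84 of 106 pathway symbols matched. Alternatives were DESeq2 1.42.0, its size factors, no filter, fits of the compared groups alone, a test against no change, a replicate block, each library left out and symbols in either letter case. Promoter motifs were not searched. Values of some members are not reported here, although the counts include them.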

Additional observations from a re-analysis of the deposited data

Results flagged for a closer look

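Results are listed here where the change over time differed between mutant and wildtype fins by edgeR's test of the difference itself (mutant minus wildtype, log2 scale). From 0 to 1 dpa, ccl25b differed by 1.86 and ccl27b by 1.58, a smaller decrease in the mutant, and nfkbiab by -2.94.

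From 0 to 4 dpa, the called chemokines and the receptor ccr9a were more negative in the mutant. The values were -2.36 for ccl19b, -1.64 for ccl20b, -1.86 for ccl25b, -1.74 for ccl27b, -3.04 for cxcl8b.1 and -3.04 for ccr9a. The IkB-alpha genes nfkbiaa and nfkbiab differed by -1.44 and -2.47, the interferon factors irf2a and irf9 by -1.34 and -1.04, and csf1a, mpeg1.2 and tnfaip8l3 by -0.98, -1.02 and -1.17. More positive in the mutant were cxcr4a at 2.29, il17rd at 1.42, nfkb1 at 1.09, tnfrsf19 at 1.02 and socs5a at 0.99. edgeR adjusted p lay between 0.00502 and 0.0484. With each library left out in turn, nfkbiab of the first comparison and ccr9a of the second were called throughout. The mutant pair at 0 dpa, which enters every one of these values, had the lowest correlation between replicates.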

How the results depend on the processing

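Of 233 calls of a member in a comparison, 121 held under every alternative and 0 changed direction. DESeq2 lost 36 of 233, its size factors in edgeR 7, no filter 2 and the replicate block 6, and leaving out a library lost 272 of 1016. Fits of only the groups compared lost 29 of 231. The 233 calls include 36 over time in sp7+ and 33 in sp7- cells. Since 46 members were listed for that change, the share held is a description. Symbols in either letter case moved no count by over 1.5 times. With 2 libraries a group, each library left out leaves a lone sample that is assumed to vary like the other groups.

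Tested against no change instead of 2-fold, the counts were 13 higher and 19 lower at 1 against 0 dpa in wildtype, 11 and 20 at 4 against 0 dpa and 11 and 16 at 4 against 1 dpa. They were 24, 36 and 34 called in the mutant for the same comparisons, 50 called over time in sp7- cells, 15 higher in sp7+ cells at 0 dpa and 11 lower in sp7+ cells at 4 dpa. With only the groups compared, 7 were higher and 8 lower at 4 against 1 dpa in wildtype, 5 were called at 1 dpa in the mutant, and 0 between genotypes at 0 dpa, where edgeR over all groups gave 3 and DESeq2 5. The difference in change then gave 1 at 1 dpa and 7 at 4 dpa. DESeq2 gave 3 lower at 4 against 1 dpa in wildtype, 6 at 1 dpa in the mutant, 5 in the difference in change at 1 dpa and 1 lower in sp7+ cells at 4 dpa. Without a filter there were 5 between genotypes at 0 dpa, 5 in the difference at 1 dpa and 5 lower in sp7+ cells at 4 dpa. The cause of these shifts was not tested.

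In unsorted fins, deviations of same-numbered libraries correlated with r from -0.15 to 0.27. The sorted pairs from the same fins, with 0.26 and 0.13, lay within this range. The measure thus cannot tell whether the numbers pair unsorted libraries. The replicate block gave 5 calls between genotypes at 1 dpa (il17rd, il17rel and irf8 lost). In sorted cells the block within each time point gave 5 lower in sp7+ cells at 4 dpa and lost 0 of 36 calls.

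With each library left out, wildtype counts were 6 to 7 higher and 6 to 7 lower at 1 against 0 dpa, 3 to 4 and 4 to 5 at 4 against 0 dpa, and 3 and 2 to 4 at 4 against 1 dpa. Mutant counts were 7 to 10, 20 to 25 and 9 to 12. Genotype counts were 1 to 8 at 0 dpa, 0 to 2 at 1 dpa and 1 to 18 at 4 dpa, and the difference in change 1 to 5 and 2 to 29. Over time, sp7+ cells gave 27 to 36 and sp7- cells 28 to 35. Between populations there were 7 to 9 higher and 14 to 17 lower at 0 dpa, and 5 to 9 higher and 0 to 3 lower at 4 dpa.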
